A study of Mus musculus with 24 samples.

Results

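Autophagy delivers cytoplasm, protein aggregates and organelles to the lysosome inside a double-membrane vesicle, the autophagosome. A kinase complex starts the process, a lipid kinase complex marks the membrane, lipid transfer proteins let it grow, and a conjugation system attaches ATG8 proteins (the LC3 and GABARAP families) that recruit cargo receptors. The growth kinase complex mTORC1 restrains the first kinase and the energy sensor AMPK activates it. In mice, loss of Atg5 or Atg7 in Purkinje cells, through which the cerebellar cortex sends its output, leads to their degeneration.

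The 40 genes described here encode that machinery and its mTORC1 and AMPK input. They were taken from a fixed list of symbols, each of which matched 1 of the 37991 Ensembl gene identifiers in the count tables. The list was chosen with earlier results of these data known. They were sorted into 6 steps, and placing Atg2a, Atg2b, Atg9a, Wipi1 and Wipi2 in a step called expansion was a choice made here. All 40 had counts in every library and passed the low-count filter, as did 15292 genes in all. The libraries were made from cerebellum of male C57BL/6J mice, with 2 libraries at 7 weeks and 2 at 79 weeks, and no mutant or treatment is given in the labels. The series has 24 samples, of which the 20 genomic ones were not used. The labels do not say whether the libraries of each age are from different animals. The p-values therefore reflect only how far these libraries varied, and that variation may be technical.

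Depth was 16367656 and 21124608 reads counted in genes for the 7-week libraries, and 18901921 and 22826993 for the 79-week ones. Levels are in CPM (a gene's counts relative to the total of its library, after TMM scaling). The 8 Purkinje cell markers summed to 10754 and 10724 CPM at 7 weeks and to 8791 and 9032 CPM at 79 weeks, where 5 of 8 passed the test as lower. The 8 markers of cerebral cortex neurons summed to at most 12.02 CPM. Choroid plexus markers set 1 library apart. Their 8 genes summed to 17.1 and 31.3 CPM at 7 weeks, 5351 CPM in 79-week replicate 1 and 40.2 CPM in 79-week replicate 2, and Ttr alone made up 5061 CPM of the highest sum. Ependymal markers were also highest in 79-week replicate 1, at 38.0 CPM beside 5.21 to 11.2 CPM in the others. So was the sum of the markers of meninges and fibroblasts, at 326 CPM beside 138 to 171 CPM, and Igf2 alone made up 229 CPM of it. Dcn, Lum and Slc22a6 were also highest in that library, while Col1a1 and Col1a2 were below both 7-week libraries there. Myelinating oligodendrocyte markers summed to 6221 and 5850 CPM at 7 weeks, and to 3738 and 5259 CPM in 79-week replicates 1 and 2. Microglial markers summed to 113 and 125 CPM at 7 weeks and 184 and 225 CPM at 79 weeks, where 5 of 8 passed the test as higher. Granule neuron markers summed to 6935 and 6833 CPM and then to 5677 and 5425 CPM, where 5 of 8 passed as lower. The part of these cell types in the results below was not tested, and in whole tissue fewer cells of a type and less RNA per cell cannot be told apart.

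Between 7 and 79 weeks the mRNA levels of most of the 40 genes differed by little, and more were lower than higher. In edgeR's quasi-likelihood test, with p-values adjusted over the whole table by the Benjamini-Hochberg method, Atg101 passed an adjusted p of 0.05 as higher at 79 weeks and Atg3 as lower, and the other 38 genes did not pass. That is 5% of the 40 genes, against 8.84% of all tested genes, 4.17% higher and 4.68% lower. At an unadjusted p under 0.05 the counts were 10 of 40, or 25%, against 26.7% of all genes. The median log2 fold change of the 40 genes was -0.07, beside 0.01 over all tested genes. Below 0 were 26 of 40, or 65%, against 48.3% of all tested genes. Scaling by library size alone moved the median to -0.01 and left 22 of 40 below 0. It moved the median over all tested genes as well, to 0.06, so that of the 40 genes stayed below it. The genes called over the whole table changed from 637 higher and 715 lower to 901 higher and 484 lower.

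**Figure D1:**
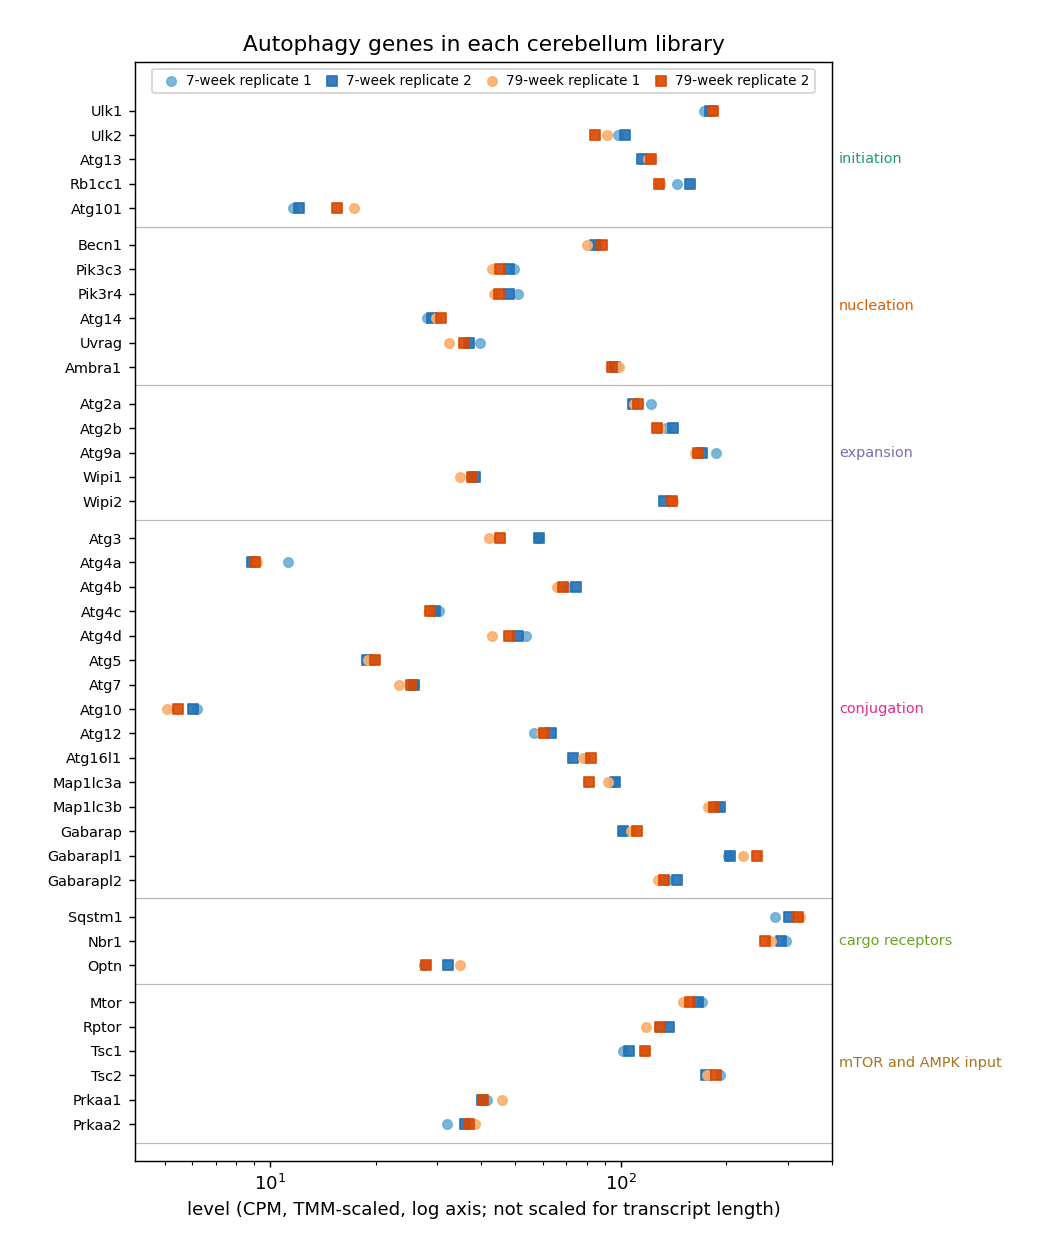
Level of each of the 40 autophagy genes in each cerebellum library, in TMM-scaled CPM on a log axis, grouped by step. Blue marks are the 7-week libraries and orange marks the 79-week libraries (circles replicate 1, squares replicate 2). Most genes have all 4 marks close together, and Atg101 and Atg3 have the ages apart. Levels are not scaled for transcript length, so genes are not to be compared with each other.

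The libraries allowed fairly narrow limits on most of these genes. For 36 of 40 genes the whole 95% interval of the log2 fold change lay within 0.5 of 0, and for 38 of 40 the estimate itself lay within 0.25 of 0. Among all tested genes those shares were 56.1% and 66.1%. The 40 genes had a median level of 88.0 CPM against 24.1 CPM for all tested genes, and deeper counts give narrower intervals. The 4 with wider limits were Atg101, Atg3, Atg4a and Atg10. The ages did not overlap for 27 of 40 genes, or 67.5%, against 57.7% of all tested genes. Both 79-week libraries lay below both 7-week libraries for 18 of 40 genes, or 45%, against 28.7% of all tested genes, and above them for 9 of 40, or 22.5%, against 29.1%. Relative to the 7-week mean, the median gene stood at -0.08 on the log2 scale in 79-week replicate 1 and at -0.04 in replicate 2. With 2 libraries against 2, an exact permutation test of a single gene cannot give a p below 0.333, so no such test is reported.

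**Figure D2:**
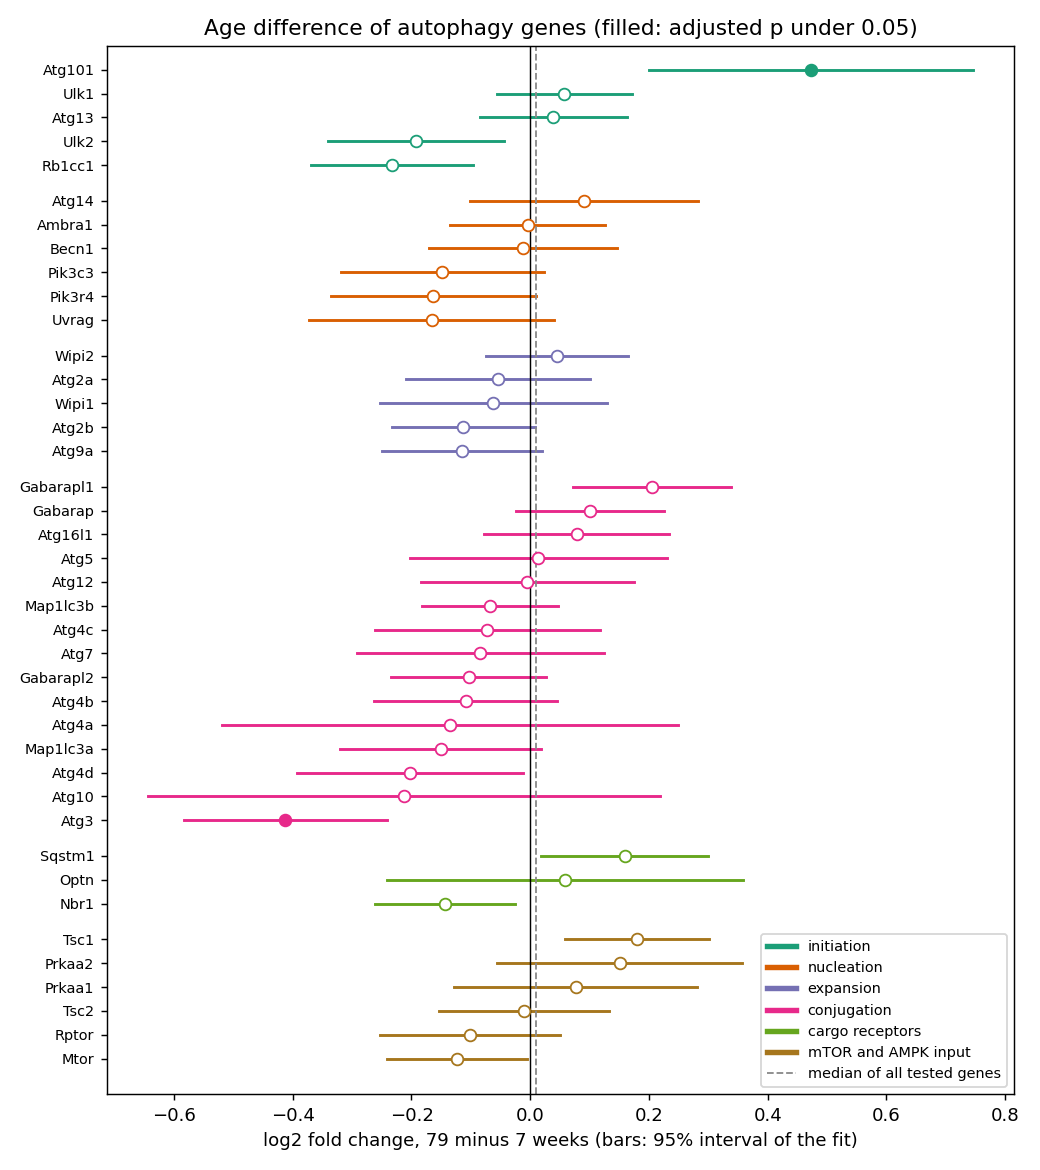
Log2 fold change of each autophagy gene, 79 minus 7 weeks, with the 95% interval of the edgeR fit, coloured by step. Filled points passed an adjusted p of 0.05. Atg101 at 0.47 and Atg3 at -0.41 are the filled points, and the dashed line is the median of all tested genes at 0.01.

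Initiation rests on the kinases Ulk1 and Ulk2 and their partners Atg13, Rb1cc1 (the scaffold FIP200) and Atg101, which binds and stabilises Atg13. Atg101 (ENSMUSG00000037204) was at 11.6 and 12.1 CPM at 7 weeks and at 17.4 and 15.6 CPM at 79 weeks. Both aged libraries were above both young ones, and 79-week replicate 1 was the higher of the aged pair. The gene rose 1.39-fold (log2 fold change 0.47, SE 0.12, 95% interval 0.20 to 0.75, adjusted p = 0.0487). That call was close to the threshold. It was lost in DESeq2 (adjusted p = 0.181), in limma-voom (adjusted p = 0.0643) and with the replicate number as a block (adjusted p = 0.0683). Of the single libraries left out in edgeR, 79-week replicate 1, with its choroid plexus RNA, ended the call at a log2 fold change of 0.39 (adjusted p = 0.106), and so did each 7-week library (adjusted p = 0.268 and 0.176), but not 79-week replicate 2 (0.55, adjusted p = 0.0124). DESeq2 did not call it with any library left out.

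Among protein-coding genes of the RefSeq annotation that also appear in the count tables, the one next upstream of Atg101 is Nr4a1, on the same strand, which encodes an activity-induced nuclear receptor. Nr4a1 stood at 24.2 and 32.2 CPM at 7 weeks and at 125 and 54.5 CPM at 79 weeks, a 3.15-fold rise (adjusted p = 0.031). The 79-week value differed widely between replicates, and the fold was 1.9198 without replicate 1 (adjusted p = 5.72e-06) and 4.38 without replicate 2. Leaving out either 7-week library ended its call (adjusted p = 0.261 and 0.146), as did DESeq2, limma-voom and robust dispersion (adjusted p = 0.0588, 0.0685 and 0.306). Its 4 libraries fell in the same order as those of Atg101, but how many other genes share that order was not counted. The neighbour on the other side, Krt80, was at 0.561, 0.434, 2.33 and 0.691 CPM in the same libraries and did not pass the test (adjusted p = 0.163). Whether the counts of Atg101 include reads from transcripts of Nr4a1 was not tested, and the p-value of its 1.39-fold rise does not allow for such reads. The 300 bases around the start of Atg101 are shown because it is the gene of the list that rose. They are RefSeq sequence of build GRCm38.p6, chr15:101284051-101284350, plus strand, 250 bases before and 50 after the start. They hold no CACGTG, the E-box that TFEB, a regulator of lysosomal and autophagy genes, and several related factors bind.
Atg101: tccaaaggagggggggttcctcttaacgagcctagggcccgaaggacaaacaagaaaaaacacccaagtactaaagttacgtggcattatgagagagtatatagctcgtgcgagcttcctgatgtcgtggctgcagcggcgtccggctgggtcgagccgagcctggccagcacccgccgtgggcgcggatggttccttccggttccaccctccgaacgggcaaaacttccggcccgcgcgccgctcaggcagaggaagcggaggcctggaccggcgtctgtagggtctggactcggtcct

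The other members of the kinase complex did not pass the test. Rb1cc1 was at 144 and 158 CPM at 7 weeks and at 129 and 128 CPM at 79 weeks. The aged libraries were both lower and nearly equal (log2 fold change -0.23, SE 0.06, adjusted p = 0.0521). Rb1cc1 sat just outside the threshold, and passed it in 5 of 10 alternatives that kept all libraries. Ulk2 was at 98.4 and 102.9 CPM and then at 91.7 and 84.7 CPM, again without overlap (log2 fold change -0.19, SE 0.06, adjusted p = 0.102). Ulk1 was at 173 and 179 CPM and then at 184 and 183 CPM, and Atg13 at 120.3 and 115 CPM and then at 119.7 and 122 CPM. Ulk2 thus gave 36.3% and 36.5% of the counts of the ULK pair at 7 weeks and 33.3% and 31.6% at 79 weeks. The exact 95% binomial intervals reached down to 34.8% at 7 weeks and up to 34.5% at 79 weeks, and cover counting error only.

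Nucleation depends on the lipid kinase Pik3c3 (VPS34), which forms phosphatidylinositol 3-phosphate, with its regulatory subunit Pik3r4 (VPS15) and Becn1. Atg14 directs the complex to autophagosomes, Uvrag takes the place of Atg14 in an alternative complex, and Ambra1 binds Becn1. None of the 6 passed the test, and their log2 fold changes ran from -0.17 to 0.09. Pik3r4 was at 51.0 and 48.1 CPM at 7 weeks and at 43.5 and 44.9 CPM at 79 weeks (log2 fold change -0.16, SE 0.07, adjusted p = 0.208). Pik3c3 was at 49.5 and 48.1 CPM and then at 42.8 and 45.2 CPM (log2 fold change -0.15, SE 0.07, adjusted p = 0.244). Both of these kinase subunits had lower values in each aged library than in either young one, as did Uvrag, at 39.7 and 36.9 CPM and then 32.4 and 35.7 CPM. Atg14 was at 28.0 and 28.9 CPM and then at 29.8 and 30.8 CPM (adjusted p = 0.527). Becn1, at 84.9 ± 0.802 and 84.1 ± 5.98 CPM (mean ± SD, n = 2 per age), and Ambra1, at 97.1 ± 0.692 and 96.9 ± 3.08 CPM, had overlapping ages and fitted differences so small that their sign turned with the scaling.

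Growth of the membrane uses Atg2a and Atg2b, which carry lipids, Atg9a, which moves them between leaflets, and Wipi1 and Wipi2, which bind the lipid mark. None of the 5 passed the test, with log2 fold changes from -0.11 to 0.04. Atg9a was at 187 and 171 CPM at 7 weeks and at 163 and 166 CPM at 79 weeks (adjusted p = 0.25), and Atg2b at 135 and 141 CPM and then at 128 and 127 CPM (adjusted p = 0.212). Both genes were lower in each aged library than in either young one, and neither 95% interval reached a log2 fold change of -0.25. Wipi2, which recruits the conjugation machinery, was at 139.3 and 133 CPM and then at 141 and 139.7 CPM. Atg2a and Wipi1 had ages that overlapped.

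Conjugation attaches ATG8 proteins to lipid. Atg4 proteases trim them, Atg7 activates them, Atg3 is the conjugating enzyme that passes them to phosphatidylethanolamine, and a complex of Atg12, Atg5 and Atg16l1, joined with the help of Atg10, directs the transfer. Atg3 (ENSMUSG00000022663) was the gene of the list that fell. It was at 58.2 and 58.5 CPM at 7 weeks and at 42.2 and 45.4 CPM at 79 weeks, so the ages were well apart and each pair was close. It fell by 0.41 on the log2 scale (SE 0.07, 95% interval -0.58 to -0.24, adjusted p = 0.0184), a change of -24.9%. It passed in all 10 alternatives that kept all libraries. In edgeR it also passed when 79-week replicate 1, which held the choroid plexus RNA, was left out (log2 fold change -0.36, adjusted p = 0.0174), and when 79-week replicate 2 was (-0.47, adjusted p = 0.00189). Leaving out a 7-week library ended the call with almost the same fold change, at -0.42 for the first replicate (adjusted p = 0.153) and at -0.41 for the second (adjusted p = 0.108). Without the first of these, edgeR called 0 genes of the whole table, where 2610 had an unadjusted p under 0.05, and DESeq2 called 243, with Atg3 not among them. DESeq2 lost the call of Atg3 with each of the 4 libraries left out (adjusted p = 0.0992 to 0.441).

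The region before Atg3 is shown because it carries the E-box discussed above and is shared with another gene. Atg3 and Slc35a5, a member of the nucleotide sugar transporter family, start head to head, with 156 bases between their RefSeq starts. The window of 300 bases around the start of Atg3, chr16:45158579-45158878 on the plus strand of GRCm38.p6, overlaps that of Slc35a5 by 255 bases. It holds 2 copies of CACGTG, in capitals, which begin 94 and 71 bases before the start of Atg3 and lie between the starts.
Atg3: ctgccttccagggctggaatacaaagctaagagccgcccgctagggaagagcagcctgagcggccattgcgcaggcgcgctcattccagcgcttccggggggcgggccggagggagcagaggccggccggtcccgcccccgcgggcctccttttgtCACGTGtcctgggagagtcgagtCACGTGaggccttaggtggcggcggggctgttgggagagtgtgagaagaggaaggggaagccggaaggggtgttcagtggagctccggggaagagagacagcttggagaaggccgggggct

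Slc35a5 did not pass the test. It was at 43.6 and 46.4 CPM at 7 weeks and at 42.7 and 40.6 CPM at 79 weeks (log2 fold change -0.11, SE 0.08, adjusted p = 0.397). Within each library, where scaling drops out, the count of Atg3 was 1.34 and 1.26 times that of Slc35a5 at 7 weeks and 0.989 and 1.12 times at 79 weeks. These ratios did not overlap between the ages, and whether they differ beyond the spread between libraries was not tested.

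**Figure D3:**
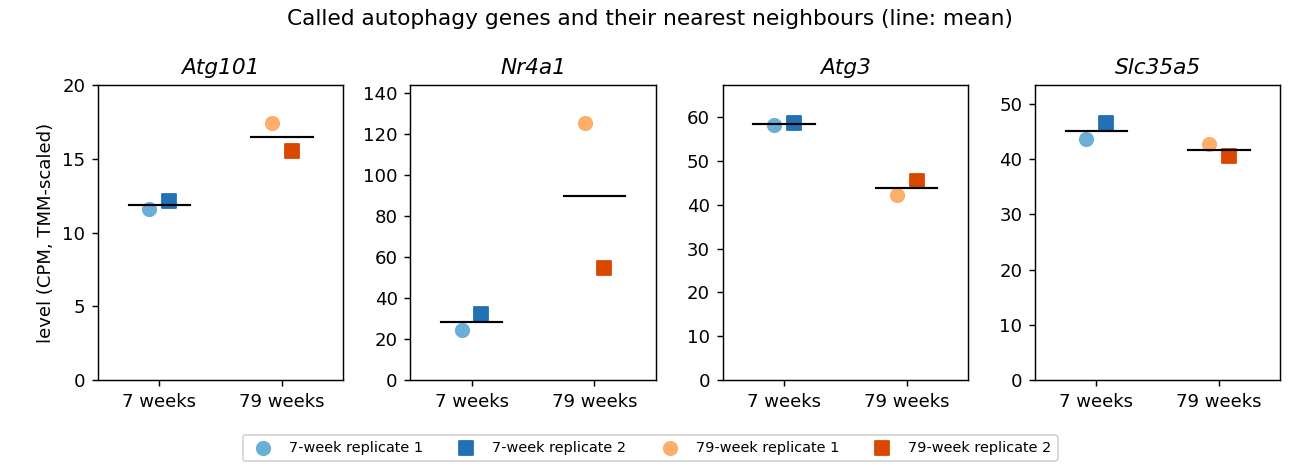
Levels in TMM-scaled CPM of the called genes Atg101 and Atg3 and of a neighbouring gene of each, Nr4a1 and Slc35a5, in each library. Points are libraries, lines are means, and each panel has its own axis from 0. Nr4a1 reaches 125 CPM in 79-week replicate 1, and Atg3 is at 45.4 CPM or less in the aged libraries.

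RefSeq start windows were found for 34 of the 40 genes, 37 windows in all. Those of Rb1cc1, Becn1, Pik3c3, Atg12, Atg16l1 and Map1lc3a were not used here. CACGTG, which reads the same on both strands, occurred in 4 of the 37 windows, or 10.8%, against 7.15% of all 32851 windows. The longer GTCACGTG, searched on both strands and containing the first motif, occurred in 3 of 37, or 8.11%, against 2.25%. Some genes have several start windows. The matches lay before the start of a window of Atg3, Atg5 and Atg7 and at that of Atg14, and whether it is the gene's main start was not examined. The sites outside Atg3 are printed with 30 bases each to show the flanks, with CACGTG in capitals. They are GRCm38.p6 chr6:114670952-114670981 (plus strand) for Atg7, chr14:47568418-47568447 (minus strand) for Atg14 and chr10:44268313-44268342 (plus strand) for Atg5, which has the shorter motif alone.
Atg7: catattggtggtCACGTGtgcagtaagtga
Atg14: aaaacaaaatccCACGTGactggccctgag
Atg5: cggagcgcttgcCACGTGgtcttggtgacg
Of the genes with a match Atg3 alone passed the test. Atg7 was at 25.7 ± 0.00126 and 24.2 ± 1.34 CPM (log2 fold change -0.08), Atg5 at 19.3 ± 0.546 and 19.5 ± 0.578 CPM (0.01) and Atg14 at a log2 fold change of 0.09.

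Of the 10 conjugation enzymes Atg3 fell, 0 rose and 9 did not pass. Aged libraries were below young ones for 6 of the 10 and above them for 0, beside 28.7% and 29.1% of all tested genes. Atg4d was at 53.8 and 51.1 CPM at 7 weeks and at 43.0 and 48.0 CPM at 79 weeks (log2 fold change -0.20, SE 0.08, adjusted p = 0.165), and Atg4b at 70.2 and 74.7 CPM and then at 66.04 and 68.4 CPM (adjusted p = 0.339). Atg4c was at 29.99 ± 0.583 and 28.5 ± 0.121 CPM. Atg10 had the fewest counts, with 6.17 and 6.03 CPM and then 5.08 and 5.44 CPM, and the widest interval, from -0.64 to 0.22. Atg12, at 59.9 ± 4.77 and 59.8 ± 0.727 CPM, Atg16l1, at 76.0 ± 4.05 and 80.1 ± 2.82 CPM, and Atg4a, at 10.05 ± 1.65 and 9.12 ± 0.0657 CPM, overlapped between the ages.

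The 5 ATG8 genes split by direction without any passing the test, and in each of them the ages did not overlap, as in 57.7% of all tested genes. Gabarapl1 was at 202 and 205 CPM at 7 weeks and at 224 and 245 CPM at 79 weeks (log2 fold change 0.21, SE 0.06, 95% interval 0.07 to 0.34, adjusted p = 0.0682). It passed in 3 of the 10 alternatives that kept all libraries. With 79-week replicate 1 left out it passed in edgeR (0.27, adjusted p = 0.022) but not in DESeq2 (0.26, adjusted p = 0.215), and in edgeR with replicate 2 left out it stood at 0.13 (adjusted p = 0.284). Gabarap was at 101.8 and 101.6 CPM and then at 107 and 111 CPM (adjusted p = 0.278). The remaining genes were lower in both aged libraries. Map1lc3a went from 95.8 and 96.6 CPM to 92.2 and 81.2 CPM (adjusted p = 0.229), Map1lc3b from 188 and 192 CPM to 178 and 185 CPM (adjusted p = 0.423), and Gabarapl2 from 136 and 145 CPM to 128 and 133 CPM (adjusted p = 0.286).

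Shares within the family do not depend on the scaling of libraries. Gabarapl1 gave 27.9% of the 11603 ATG8 counts in 7-week replicate 1 (exact 95% binomial interval 27.1% to 28.8%) and 27.7% of 15330 in replicate 2 (27.0% to 28.4%). At 79 weeks it gave 30.7% of 14068 (29.97% to 31.5%) and 32.5% of 17476 (31.8% to 33.2%). Its share was thus higher in both aged libraries than counting error alone allows, although the aged libraries differed from each other as well. Map1lc3b gave 25.98% and 25.98% and then 24.4% and 24.4%, and Gabarapl2 18.7% and 19.5% and then 17.5% and 17.6%. Map1lc3a gave 13.3% and 13.1% at 7 weeks, 12.7% in 79-week replicate 1 and 10.8% in replicate 2. Gabarap gave 14.1% and 13.7% and then 14.7% and 14.7%. A share can move because another gene of the family did, and shares are followed here from library to library, not compared between genes of unequal length.

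**Figure D4:**
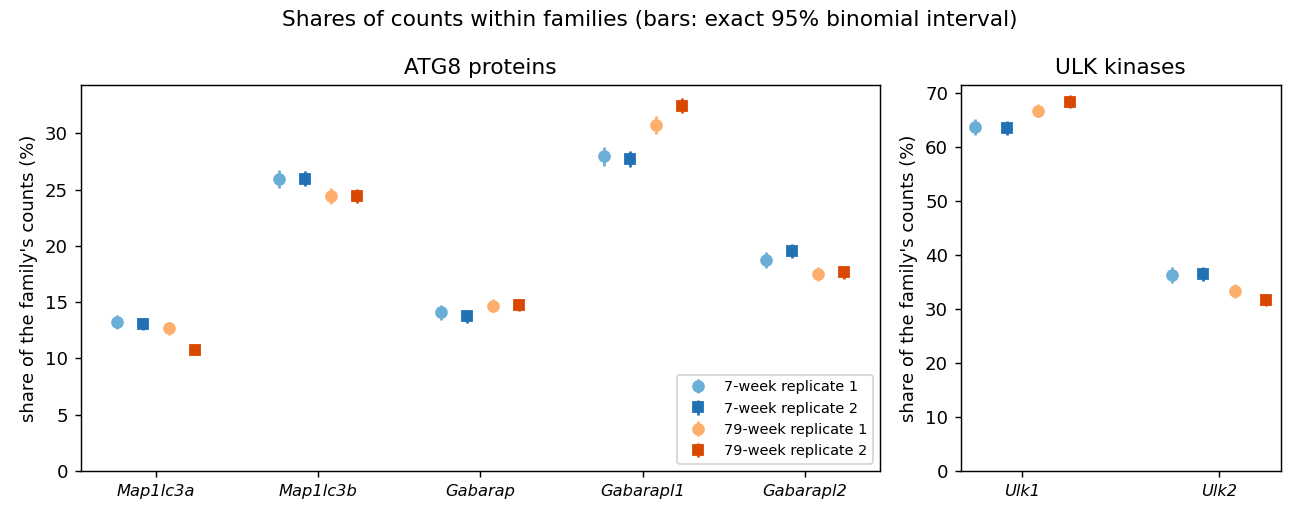
Share of a family's counts held by each gene, in percent, for the 5 ATG8 genes and the ULK kinases, in each library. Bars are exact 95% binomial intervals and cover counting error only. Gabarapl1 holds 27.7% to 27.9% at 7 weeks and 30.7% to 32.5% at 79 weeks, and Ulk2 36.3% to 36.5% and then 31.6% to 33.3%.

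Cargo receptors bind ubiquitin-tagged material and ATG8 proteins at once. Of the 3 listed, 0 passed the test. Sqstm1 (p62) was at 276 and 303 CPM at 7 weeks and at 325 and 321 CPM at 79 weeks (log2 fold change 0.16, SE 0.06, adjusted p = 0.142). Nbr1, a receptor related in domain structure, was at 295 and 286 CPM and then at 268 and 258 CPM (log2 fold change -0.14, SE 0.05, adjusted p = 0.118). Both had ages that did not overlap, in opposite directions. Optn, a receptor for damaged mitochondria and bacteria, was at 27.5 and 32.2 CPM and then at 34.7 and 27.8 CPM, and each age spanned a wide range. Its log2 fold change was 0.06, and its sign turned when either 7-week replicate 1 or 79-week replicate 1 was left out.

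Of the mTORC1 and AMPK input genes 0 of 6 passed. Tsc1, which with Tsc2 restrains mTORC1, was at 102 and 105 CPM at 7 weeks and at 118 and 117 CPM at 79 weeks (log2 fold change 0.18, SE 0.05, adjusted p = 0.0748). Its aged libraries were nearly equal and above the young ones, and it passed with library size scaling (adjusted p = 0.0353). Tsc2 was at 192 and 175 CPM and then at 177 and 187 CPM, with overlapping ages and a difference whose sign turned with the scaling. The kinase Mtor was at 170.4 and 166 CPM and then at 151 and 158 CPM (log2 fold change -0.12, SE 0.05, adjusted p = 0.171), without overlap. Rptor, the scaffold of mTORC1, was at 128 and 137 CPM and then at 118 and 129.7 CPM. The catalytic AMPK subunits Prkaa1, at 41.5 and 40.3 CPM and then 45.9 and 40.4 CPM, and Prkaa2, at 31.9 and 35.9 CPM and then 38.4 and 37.0 CPM, did not pass (adjusted p = 0.625 and 0.325).

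A further 66 genes of the pathway were listed by role, with earlier results of these data known, so shares called among them are description only. Of the 65 tested 3 rose, 5 fell and 57 did not pass, or 12.3% called, beside the 8.84% of all tested genes. The largest fall was that of Camkk2, a calcium-dependent kinase that activates AMPK. It was at 249 and 242 CPM at 7 weeks and at 156 and 141 CPM at 79 weeks. The aged libraries held far less, and it fell by 0.73 on the log2 scale (SE 0.06, adjusted p = 0.00318), a change of -39.5%. It passed in 17 of 18 alternatives, the exception being edgeR with 7-week replicate 1 left out (adjusted p = 0.0879). Prkag2, a regulatory AMPK subunit, rose 1.23-fold, from 67.2 and 70.4 CPM to 88.6 and 81.0 CPM (adjusted p = 0.0405). Rragd, a Rag GTPase that brings mTORC1 to the lysosome, fell by 0.28 on the log2 scale, from 152 and 139 CPM to 114 and 126 CPM (adjusted p = 0.049). Its call was lost with the replicate block (adjusted p = 0.0523), upper-quartile scaling (0.0564), library size scaling (0.0789) and limma-voom (0.0619), and that of Prkag2 in DESeq2 (adjusted p = 0.0530).

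Vmp1 and Tmem41b, lipid scramblases of the endoplasmic reticulum needed for autophagosome growth, both fell. Vmp1 fell by 0.33 on the log2 scale, from 70.7 and 80.3 CPM to 60.2 and 59.8 CPM (SE 0.08, adjusted p = 0.0405). Tmem41b fell by 0.35, from 49.0 and 50.04 CPM to 40.3 and 37.7 CPM (SE 0.08, adjusted p = 0.0344). Neither passed with library size scaling (adjusted p = 0.0668 for Vmp1 and 0.0582 for Tmem41b), and Tmem41b did not pass in DESeq2 (adjusted p = 0.0533). Tollip, an adaptor for ubiquitin-tagged cargo, fell by 0.20, from 207 and 209 CPM to 179.7 and 183 CPM (adjusted p = 0.0424), and passed in 5 of 10 alternatives that kept all libraries. Bag3, a co-chaperone that directs clients of HSP70 chaperones to autophagy, was at 25.3 and 24.998 CPM and then at 40.8 and 49.5 CPM, a 1.80-fold rise (adjusted p = 0.00793). Foxo1, a transcription factor with autophagy genes among its targets, was at 26.7 and 34.3 CPM and then at 43.2 and 48.6 CPM, a 1.502-fold rise (SE 0.13 on the log2 scale, adjusted p = 0.0319). When 7-week replicate 2 was left out, Camkk2 was the one of these 8 genes that edgeR still called. In edgeR, leaving out 79-week replicate 1 ended the calls of Prkag2, Rragd and Tollip, and leaving out 79-week replicate 2 those of Tmem41b and Tollip. With either 79-week library left out, DESeq2 ended further calls, among them those of Vmp1 and Foxo1. Tfeb, named for the E-box above, was at 22.4 and 19.1 CPM and then at 17.3 and 21.2 CPM, with overlapping ages.

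**Figure D5:**
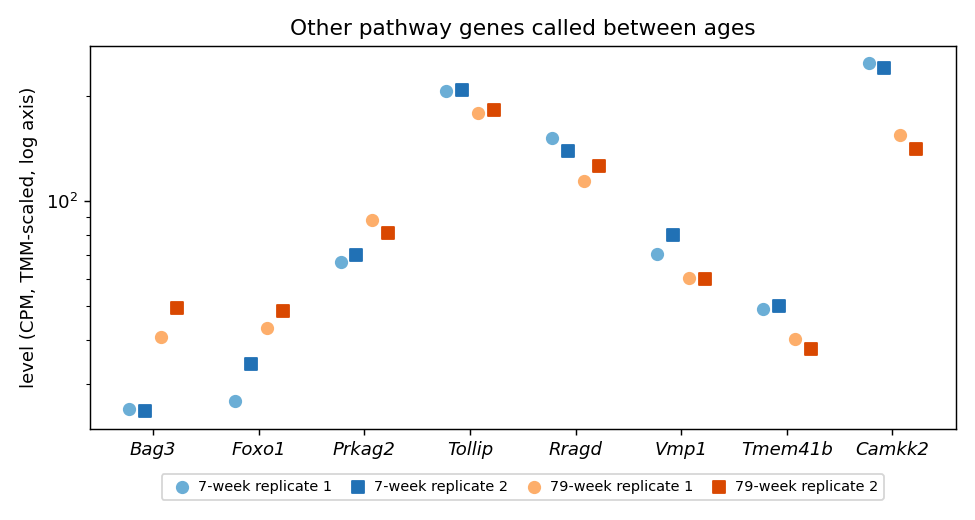
Levels in TMM-scaled CPM, on a log axis, of the 8 further pathway genes that passed an adjusted p of 0.05, ordered from the largest rise to the largest fall. Blue marks are 7-week and orange marks 79-week libraries. Bag3 is the leftmost gene with 24.998 to 25.3 CPM at 7 weeks and 40.8 to 49.5 CPM at 79 weeks, and Camkk2 the rightmost with 242 to 249 CPM and then 141 to 156 CPM.

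Among 14 genes for fusion with the lysosome 0 passed the test, yet both aged libraries were above both young ones for 9 and below them for 0, beside 29.1% and 28.7% of all tested genes. The median log2 fold change of the 14 was 0.11. These genes too were listed with earlier results of these data known, and their direction as a set was not tested. Stx17, the fusion protein of the autophagosome, was at 19.8 and 22.4 CPM at 7 weeks and at 26.6 and 26.01 CPM at 79 weeks (log2 fold change 0.32, SE 0.10, adjusted p = 0.0858). The tethering subunit genes Vps11 and Vps18 had log2 fold changes of 0.15 and 0.19 (adjusted p = 0.119 and 0.107). Their partners Vps16 and Vps39, at 0.12 and 0.07 (adjusted p = 0.237 and 0.474), were also higher in both aged libraries, while Vps33a and Vps41 overlapped between ages.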

How the data were processed

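RNA-seq reads were processed by the authors with cutadapt, STAR and HTSeq on mouse build mm9, per the submitters' processing notes; versions, annotation and strand setting were not given in the sources used here. The deposited files hold raw counts of reads for each Ensembl gene. Reads with no feature (18.7% to 20.4%), ambiguous reads (0.696% to 0.766%) and reads aligned to several places (8.02% to 8.25%) were left out. RefSeq lists a pseudogene of Atg4a and of Gabarapl2, which could share reads with them. Becn1, Atg4a, Atg4d, Atg12, Map1lc3b, Mtor and Tsc2 each overlap a protein-coding gene in RefSeq. With strand unknown, reads from the shared stretches cannot be assigned to either gene, and some may be among the ambiguous reads left out. Atg101 lies downstream of Nr4a1 on the same strand, and reads running on from Nr4a1 would not be told apart in these counts. The distance between these genes was not measured.

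Counts were filtered by filterByExpr (minimum count 10, total 15), scaled by TMM (factors 0.981 to 1.02) and tested by the quasi-likelihood F test of edgeR 4.0.16 in R 4.3.3, without covariates, with Benjamini-Hochberg adjustment over 15292 genes and a threshold of 0.05. Standard errors were derived from the fold change and the F statistic of that fit. Intervals use these and the fit's 7.5 degrees of freedom, the same for every gene. The biological coefficient of variation was 9.43%, and replicates differed by more than counting noise (chi-square per degree of freedom 6.45 at 7 weeks and 18.5 at 79 weeks). That measure pools all genes, so genes with many counts can dominate it. Ttr had 97720 counts in 79-week replicate 1 and 50 in replicate 2. The scripts were tested on simulated data. Symbols matched 32919 of 37991 identifiers. Levels are not compared between genes because transcript lengths were not used, so the planned naming of the most abundant gene per length was dropped. ATG8 protein sequences were not used here either. Start windows are from RefSeq GRCm38.p6.

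The members and lists were chosen with earlier results of these data known. By rule, called genes and the 2 genes of each step with the smallest p are given per library, and called further genes are named. Stx17, Vps11, Vps16, Vps18, Vps33a, Vps39, Vps41, Tfeb, Nr4a1, Krt80, Slc35a5 and the motifs were chosen after values were seen. The alternatives comprised other scalings (RLE, upper quartile, library size), no filter on low counts, at least 1 CPM in 2 libraries, robust dispersion, DESeq2 1.42.0, limma-voom (limma 3.58.1), a replicate block and leaving out each library in edgeR and in DESeq2. A crossed block was added after the data were seen.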

Additional observations from a re-analysis of the deposited data

How the results depend on the processing

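Of the 40 autophagy genes, 29 kept their direction under all 18 alternatives, 34 were called under none of the fits, and Ulk2, Rb1cc1, Gabarapl1 and Tsc1 were called under an alternative only. Against 1 gene higher and 1 lower, RLE scaling and a filter of 1 CPM each gave 2 lower, library size scaling 3 higher, robust dispersion 2 higher and 2 lower, and no low-count filter 2 higher and 3 lower. DESeq2 and limma-voom gave 0 higher and 1 lower. Of the further pathway genes, against 3 higher and 5 lower, upper-quartile scaling, DESeq2 and limma-voom gave 3 lower, library size scaling 6 higher and 1 lower, robust dispersion 5 higher, and no filter 8 higher and 8 lower. Without the filter 3051 genes were called against 1352. The median log2 fold change of the 40 genes was -0.011 with library size scaling, beside 0.064 over all tested genes. Near-zero fold changes turned sign with upper-quartile scaling in Becn1 (0.0013), Ambra1 (0.0093), Atg12 (0.0084) and Tsc2 (0.0023), and with library size scaling in the same genes (0.041, 0.050, 0.049 and 0.043). The causes were not tested.

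The replicate number as a block gave 0 of the 40 genes higher, 1 lower, and 3 further genes lower; same-numbered libraries did not deviate together (r = -0.106 across 15292 genes, which are not independent replicates). With crossed numbers as a block, added after the data were seen, 2 of the 40 were lower, 5 further genes were higher and 2014 genes were called in all.

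With a library left out, the lone one of that age is assumed to vary like the rest. Over both tools the genes called ran from 0 without 7-week replicate 1 (2610 at an unadjusted p under 0.05, and 243 by DESeq2) to 2425 without 79-week replicate 2. The 40 genes called ran from 0 to 1 in each direction, further genes higher from 0 to 8 and lower from 0 to 4. Log2 fold changes changed sign within these ranges: Ambra1 -0.043 to 0.023, Atg12 -0.092 to 0.078, Atg13 -0.0048 to 0.067, Atg2a -0.15 to 0.025, Atg4a -0.31 to 0.034, Atg5 -0.030 to 0.044, Becn1 -0.0996 to 0.058, Optn -0.11 to 0.21, Prkaa1 -0.025 to 0.16, Tsc2 -0.089 to 0.053 and Wipi2 -0.0017 to 0.075. None of these was called. The widest intervals were those of Atg10 and Atg4a, which also had the fewest counts of the 40 genes.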
